A study of Mus musculus with 8 samples.

Results

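The genes described here were 5 ligands of the fibroblast growth factor (FGF) family, *Fgf4*, *Fgf5*, *Fgf8*, *Fgf15* and *Fgf17*, and 2 secreted FGF-binding proteins, *Fgfbp1* and *Fgfbp3*. They were 7 of the 48440 genes in the count files, found by their Ensembl identifiers and the GENCODE M21 symbols. The members were chosen by name with the fold changes of these same 8 libraries already known, so the levels and differences of the 7 genes are given below as a description, without p-values.

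The libraries came from mouse embryonic stem (ES) cells of the C57BL/6J line MK6, differentiated without feeder cells on gelatin. After a period in N2/B27 medium, the GSK3 inhibitor CHIR99021 was added to start differentiation, and all 4 genotypes were taken at day 1 under this same regime. Wild-type cells were the controls. *Tbxt*Δexon6/Δexon6 and *Tbxt*Δexon6/+ cells carried a CRISPR deletion of exon 6 of *Tbxt*, on both alleles or on 1. *Tbxt*insASAY/insASAY cells carried the human AluSx1 and AluY elements in the introns on either side of that exon, an arrangement that lets the exon be skipped in some transcripts. By the study's methods, exon 6 was deleted in cells kept without feeders. The Alu pair was inserted in cells kept on fibroblast feeders, and its selection marker was later removed with Cre. In that line this history and the genotype cannot be told apart. Each genotype had 2 libraries. The study's methods give 2 clones for the homozygous deletion and do not say how many clones stand behind the other lines, so a difference between clones and a difference between genotypes cannot be told apart.

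FGFs are secreted proteins that bind receptor tyrosine kinases on the cell surface together with heparan sulfate, and the receptors pass the signal mainly through Ras and ERK. In mouse ES cells FGF4 is the ligand known for driving ERK activity and the exit from the naive state, FGF5 marks the epiblast after it has left that state, and FGF8 and FGF17, close relatives, act in the primitive streak and the tailbud. FGF15 is the mouse counterpart of an endocrine FGF of the gut and is also made in the neural tube. FGF-binding proteins are secreted carriers that release FGFs from the heparan sulfate of the matrix.

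Libraries held between 24618587 and 28445952 reads on genes, and between 4.11% and 4.78% of reads lay on the strand opposite to the one counted. *T*, the symbol used for *Tbxt* in the annotation, had 47 and 42 reads in wild-type, 26 and 22 with the homozygous deletion, 39 and 54 with the heterozygous deletion and 30 and 29 with the Alu pair, and counts over the whole gene do not show whether exon 6 was present. All 10 pluripotency markers listed passed the filter on low counts, whereas 5 of the 12 primitive streak markers listed did not, so the streak markers were in part low or absent at day 1. Levels are given as CPM, a gene's reads scaled to a fixed library total with the TMM factors of edgeR. Levels of different genes are compared as CPM per kilobase of exon.

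Ranked per kilobase in wild-type cells, *Fgfbp3* was the highest of the 7 genes at 13.7 ± 1.27 CPM per kb (SD, n = 2), with 23.1% of the 16999 genes compared above it. *Fgf4* stood at 5.83 ± 0.717 and *Fgfbp1* at 5.77 ± 0.308 CPM per kb, a gap smaller than the spread between libraries. *Fgf17* followed at 1.70 ± 0.0829 and *Fgf8* at 1.04 ± 0.150 CPM per kb. *Fgf15* and *Fgf5* were near the floor, at 0.162 ± 0.0120 and 0.109 ± 0.0909 CPM per kb, with 93.2% and 95.8% of genes above them. These last 2 levels overlapped between libraries.

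All 7 genes passed the edgeR filter on low counts, which asked for at least 0.376 CPM before scaling in at least 2 libraries. *Fgf5* reached that level in 4 of the 8 libraries and *Fgf15* in 5. *Fgf5* had under 10 reads in 4 libraries and *Fgf15* in 3, and these 2 genes are the ones too low to compare firmly. The other 5 genes had at least 22 reads in every library.

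**Figure D1:**
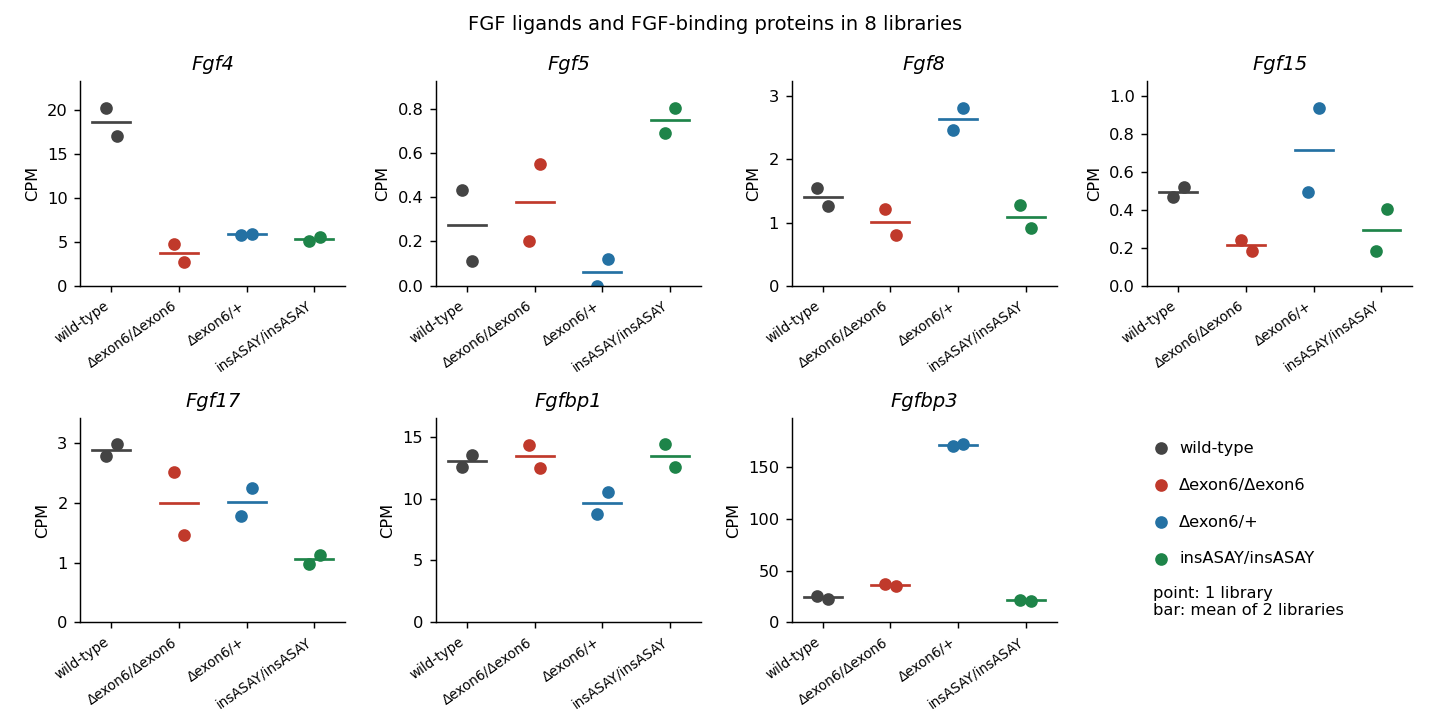
Level of each of the 7 genes in CPM (vertical axes, each from 0 and on its own scale) by genotype, with 1 point per library and a bar at the mean of 2 libraries. *Fgf4* was highest in the 2 wild-type libraries at 17.0 and 20.3 CPM, and *Fgfbp3* in the 2 *Tbxt*Δexon6/+ libraries at 170.4 and 172.2 CPM.

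*Fgf4* and *Fgfbp3* carried the largest well-measured differences, and the 250 bases before their RefSeq start sites (GRCm38.p6, each written 5′ to 3′ on its gene's strand) are shown for that reason. In *Fgf4*, on the plus strand at chr7:144861136-144861385, the capitals mark the 2 matches to the GC box GGGCGG, at 214 to 209 and 188 to 183 bases before the start. In *Fgfbp3*, on the minus strand at chr19:36919600-36919849, the capitals mark 1 match to TATAAA, read on the opposite strand at 214 to 209 bases before the start.
*Fgf4*: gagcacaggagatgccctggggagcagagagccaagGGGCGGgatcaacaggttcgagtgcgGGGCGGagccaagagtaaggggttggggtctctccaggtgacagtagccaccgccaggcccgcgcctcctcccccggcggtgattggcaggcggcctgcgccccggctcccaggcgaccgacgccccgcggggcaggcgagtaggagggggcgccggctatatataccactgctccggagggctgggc
*Fgfbp3*: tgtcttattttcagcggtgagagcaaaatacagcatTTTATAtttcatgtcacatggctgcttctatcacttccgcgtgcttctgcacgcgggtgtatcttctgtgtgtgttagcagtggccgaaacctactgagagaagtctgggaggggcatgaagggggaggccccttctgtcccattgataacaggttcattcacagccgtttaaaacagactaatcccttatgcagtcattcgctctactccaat

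The reference table held such windows for 4 of the 7 genes. The *Fgf4* window was 71.2% G or C with 21 CpG dinucleotides, and the *Fgf5* window was close to it at 70.8% with 24. The *Fgfbp1* window had 53.6% and 3 CpG dinucleotides, and the *Fgfbp3* window 47.2% and 8, against medians of 52.4% and 6 over 32851 promoter windows of the same length. The 2 ligand windows thus held more CpG dinucleotides than the 2 binding-protein windows. Both strands were searched for 5 motifs that do not overlap each other in these windows. GGGCGG was present in 32.7% of all windows and in *Fgf4* and *Fgf5*, and TATAAA in 12.4% and in *Fgfbp3*. The T-box motif TCACACCT (1.12% of all windows), the Tcf/Lef core CTTTGAT (3.21%) and the octamer ATTTGCAT (1.60%) had no match in the 4 windows, which says only that these letters were not there.

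*Fgf4* was lower in all 3 edited lines. The gene (ENSMUSG00000050917.5, chr7:144847367-144865243, plus strand) encodes the FGF that ES cells themselves secrete. It had 561 and 457 reads in wild-type libraries, 118 and 74 with the homozygous deletion, 153 and 143 with the heterozygous deletion, and 139 and 151 with the Alu pair. Both wild-type libraries thus lay above the 6 others, with no overlap. In CPM the means were 18.6 ± 2.29, 3.75 ± 1.46, 5.82 ± 0.0366 and 5.30 ± 0.326 in that order of genotypes (SD, n = 2 each). Against wild-type this was 5.02-fold lower in the homozygous deletion (log2 fold change −2.33, SE 0.184), 3.20-fold lower in the heterozygous deletion (−1.68, SE 0.173) and 3.52-fold lower in the Alu-pair line (−1.81, SE 0.173). Because the RNA came from whole cultures, fewer *Fgf4*-expressing cells and less *Fgf4* RNA per cell cannot be told apart.

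Among the edited lines *Fgf4* levels lay close together. The *Tbxt*Δexon6/+ and *Tbxt*insASAY/insASAY lines differed by −0.14 on the log2 scale (SE 0.196), less than its error, and the *Tbxt*Δexon6/+ line was 0.65 (SE 0.209) above *Tbxt*Δexon6/Δexon6. The homozygous deletion libraries differed the most from each other, at 4.78 and 2.71 CPM, and the log2 difference of that line from wild-type ran from −2.77 to −1.96 with 1 library left out.

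*Fgf4* is a textbook target of POU5F1 and SOX2, which bind an enhancer downstream of its coding sequence, outside the window shown above. *Pou5f1* fell in the homozygous deletion (log2 fold change −0.64, adjusted p = 0.000479) and in the heterozygous deletion (−0.68, adjusted p = 0.000209), and was −0.32 in the Alu-pair line, short of the size threshold. The first of these was −0.43, also short of it, without *Tbxt*Δexon6/Δexon6 replicate 2. *Sox2* did not move the same way, since it rose in the heterozygous deletion (0.72, adjusted p = 0.000199) and was −0.29 and −0.06 in the other lines. *Sox2* lies on chromosome 3, whose 848 tested genes had a median of 0.32 in the heterozygous deletion. The part of that shift in the *Sox2* rise was not tested. Over all 10 pluripotency markers listed, 6 were called lower with the homozygous deletion, 5 with the heterozygous deletion and 4 with the Alu pair, where 6.59%, 6.89% and 9.85% of all genes tested were called lower. Their summed level was 664 to 698 CPM in wild-type libraries and 384 to 537 CPM in the 6 others. The part of these markers in the *Fgf4* difference was not tested.

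*Fgf8* and *Fgf17* belong to one subfamily but differed between genotypes in different ways. *Fgf8* (ENSMUSG00000025219.13, chr19:45736798-45742915, minus strand) had 43 and 34 reads in wild-type, 30 and 22 with the homozygous deletion, 35 and 25 with the Alu pair, and 65 and 69 with the heterozygous deletion. The heterozygous deletion libraries were the highest and did not overlap the others, at 2.64 ± 0.254 CPM against 1.41 ± 0.203 in wild-type, a 1.87-fold difference (log2 0.90, SE 0.242). The other 2 lines were at 1.01 ± 0.288 and 1.10 ± 0.255 CPM, and the Alu-pair libraries overlapped those of wild-type. The *Fgf8* difference of the heterozygous deletion ranged between 0.76 and 1.06 over the alternatives and lost its call without wild-type replicate 2 (0.76), without *Tbxt*Δexon6/+ replicate 2 (0.80) and with DESeq2.

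*Fgf17* (ENSMUSG00000022101.5, chr14:70636203-70642268, minus strand) was lowest in the Alu-pair line. It had 77 and 80 reads in wild-type, 47 and 55 with the heterozygous deletion, 62 and 40 with the homozygous deletion, and 27 and 31 with the Alu pair. The Alu-pair libraries lay below the 6 others, at 1.06 ± 0.106 CPM against 2.88 ± 0.140 in wild-type, 2.71-fold lower (log2 −1.44, SE 0.267). Both deletion lines were between these, at 1.99 ± 0.738 CPM for the homozygous and 2.01 ± 0.331 CPM for the heterozygous deletion, and their libraries overlapped. Their log2 differences from wild-type, −0.55 and −0.52 with an SE of 0.241 each, were just past the size threshold but not called. The homozygous value moved to −0.96, a call, without *Tbxt*Δexon6/Δexon6 replicate 1 and to −0.20 without replicate 2. The heterozygous value ran from −0.69 to −0.36 with 1 library left out, and at −0.52 it was called without either *Tbxt*Δexon6/Δexon6 library and in the fit of only these 2 genotypes.

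*Fgf5* (ENSMUSG00000029337.2, chr5:98254184-98277030, plus strand), whose RNA marks epiblast that has left the naive state, was at or near the detection floor. It had 12 and 3 reads in wild-type, 5 and 15 with the homozygous deletion, 19 and 22 with the Alu pair, and 0 and 3 with the heterozygous deletion. The Alu-pair libraries were the highest and did not overlap the others, while the wild-type and homozygous deletion libraries overlapped. Summed over 2 libraries the 3 reads of the heterozygous deletion carry an exact 95% Poisson interval of 0.619 to 8.77 reads and the 41 reads of the Alu-pair line one of 29.4 to 55.6, both for counting error only. The library with 0 reads allows up to 0.114 CPM before scaling, the level of 3 reads.

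Leaving out 1 library moved the log2 fold change of *Fgf5* between −0.43 and 1.74 in the homozygous deletion and between −5.91 and −0.87 in the heterozygous deletion against wild-type. In the Alu-pair line it stayed above 0, between 0.78 and 2.69, around a value of 1.43 (SE 0.577).

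*Fgf15* (ENSMUSG00000031073.6, chr7:144896531-144900953, plus strand) starts 49.2 kb downstream of the annotated start of *Fgf4* on the same strand. It had 13 and 14 reads in wild-type, 6 and 5 with the homozygous deletion, 5 and 11 with the Alu pair, and 13 and 23 with the heterozygous deletion. The homozygous deletion libraries were below wild-type without overlap, and the heterozygous deletion libraries overlapped wild-type. The log2 differences from wild-type were −1.21 (SE 0.533), −0.75 (SE 0.491) and 0.52 (SE 0.415) for the homozygous deletion, the Alu pair and the heterozygous deletion, none of them called. With 1 library left out they ran from −1.40 to −1.01, from −1.42 to −0.30 and from −0.01 to 0.92, so the direction in the heterozygous deletion rested on its replicate 2. The 2 antisense genes that overlap *Fgf15* had at most 2 reads in any library.

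*Fgfbp3* (ENSMUSG00000047632.10, chr19:36917550-36919615, minus strand), the carrier with the highest RNA level of the 7 genes, was 7.07-fold higher in the heterozygous deletion than in wild-type. Its reads were 715 and 608 in wild-type, 916 and 964 with the homozygous deletion, 605 and 564 with the Alu pair, and 4500 and 4213 with the heterozygous deletion. The 2 heterozygous deletion libraries, at 170.4 and 172.2 CPM, stood apart from the 6 others, which ran from 20.6 to 37.1 CPM. The log2 difference from wild-type was 2.82 (SE 0.0680) and lay between 2.73 and 2.92 over the 15 alternatives. Per kilobase its level was above that of the receptor *Fgfr1*, at 96.7 ± 0.724 against 13.2 ± 0.151 CPM per kb in the same line.

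In the homozygous deletion *Fgfbp3* was 1.49-fold higher than in wild-type, at 36.2 ± 1.22 against 24.2 ± 2.25 CPM, with no overlap of libraries. That log2 difference of 0.58 (SE 0.0715) dropped to 0.49, under the size threshold, without wild-type replicate 2. The Alu-pair line, at 21.3 ± 0.995 CPM, was −0.18 (SE 0.0749) from wild-type. The order heterozygous, homozygous, wild-type and Alu pair had no overlap between neighbours.

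*Fgfbp1* (ENSMUSG00000048373.8, chr5:43978858-43981779, minus strand), the second carrier, varied least. It had 348 and 364 reads in wild-type, 355 and 340 with the homozygous deletion, 395 and 344 with the Alu pair, and 231 and 257 with the heterozygous deletion. The first 3 genotypes overlapped, at 13.1 ± 0.697, 13.4 ± 1.35 and 13.5 ± 1.28 CPM, and the heterozygous deletion was below them at 9.63 ± 1.24 CPM. That log2 difference of −0.44 (SE 0.123) was under the size threshold. In the heterozygous deletion the 2 carriers thus differed from wild-type in opposite directions.

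**Figure D2:**
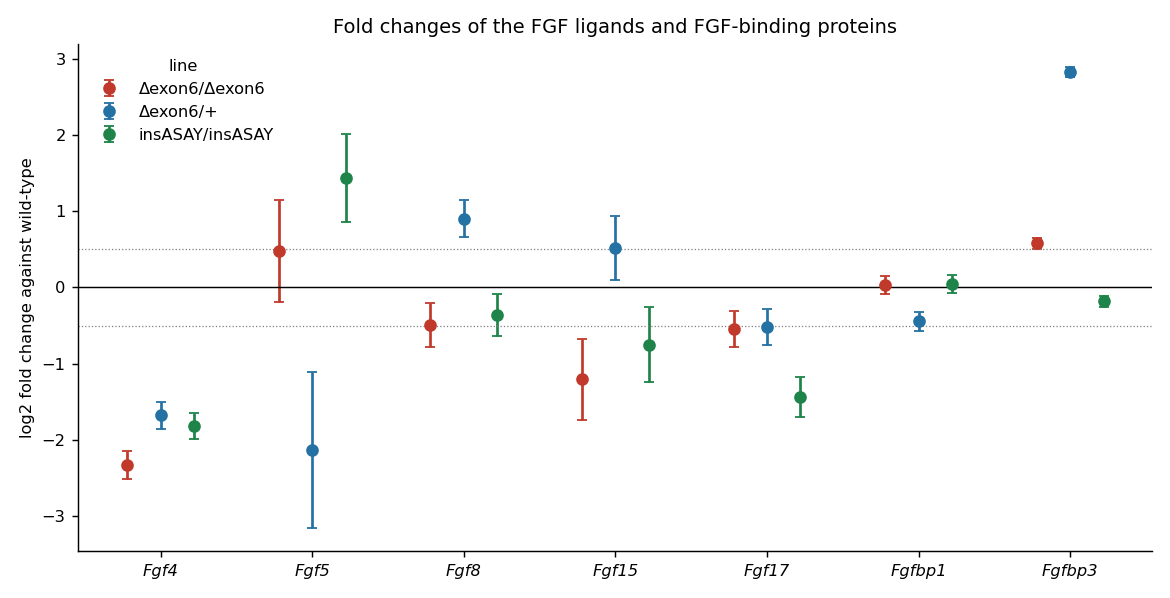
Fitted log2 fold change of each gene against wild-type (vertical axis) in the 3 edited lines, with bars of 1 SE and dotted lines at the size threshold of 0.5. *Fgf4* is below −1.5 in each line, *Fgfbp3* reaches 2.82 in *Tbxt*Δexon6/+ only, and the bars of *Fgf5* and *Fgf15* are the longest.

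A gene was called where the adjusted p of edgeR's quasi-likelihood test was below 0.05 and the log2 fold change was past 0.5 in size. Against wild-type, 2 of the 7 genes were called in the homozygous deletion, *Fgfbp3* higher and *Fgf4* lower, where 12.7% of all genes tested were called, 6.12% higher and 6.59% lower. In the heterozygous deletion 3 were called, *Fgfbp3* and *Fgf8* higher and *Fgf4* lower, beside 13.5% of all genes, 6.60% higher and 6.89% lower. In the Alu-pair line 2 were called, *Fgf4* and *Fgf17*, both lower, beside 21.3% of all genes, 11.5% higher and 9.85% lower. The same comparisons had 5 genes each whose libraries did not overlap those of wild-type, beside 67.6%, 69.3% and 77.0% of all genes. Nothing is read from these counts, since the genes were chosen on these values, and the 3 comparisons share the wild-type libraries.

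Between the edited lines, 5 of the 7 genes were called for the heterozygous against the homozygous deletion (22.2% of all genes). *Fgfbp3* differed there by 2.24, *Fgf15* by 1.72, *Fgf8* by 1.39, *Fgf4* by 0.65 and *Fgf5* by −2.61 on the log2 scale. *Fgf5* (SE 0.952) and *Fgf15* (SE 0.502) are the 2 genes too low to compare firmly. The *Fgf5* call was lost under 4 of 12 alternatives and the *Fgf15* call under 2 of 13. The *Fgf4* difference fell to 0.28 without *Tbxt*Δexon6/Δexon6 replicate 2 and lost its call there and without either *Tbxt*Δexon6/+ library. Only *Fgfbp3*, at −0.76, was called for the Alu pair against the homozygous deletion (5.16% of all genes). For the Alu pair against the heterozygous deletion 5 were called (27.5% of all genes), with *Fgf5* at 3.56, *Fgfbp3* at −3.00, *Fgf15* at −1.27, *Fgf8* at −1.26 and *Fgf17* at −0.92. The *Fgf5* value has an SE of 0.818 and rests on 19 and 22 reads against 0 and 3. Its call held under 14 of 14 alternatives, while *Fgf15* lost its call under 5 of 14 and *Fgf17* under 2 of 15.

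The median log2 difference of the 7 genes from wild-type was −0.49, −0.44 and −0.36 in the homozygous deletion, the heterozygous deletion and the Alu pair, beside −0.01, 0.00 and −0.01 for all genes tested. Scaling by another method moved the median of all genes by less than 0.1.

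As one pool, the RNA of the 18 secreted FGF ligands summed to 17.0 ± 0.504 CPM per kb in wild-type cells. The sum was 8.50 ± 2.22 in the homozygous deletion, 8.07 ± 0.459 in the heterozygous deletion and 8.60 ± 0.915 CPM per kb in the Alu-pair line. *Fgf4* made up 34.2% ± 3.20 of the wild-type sum, and 13.5% ± 1.83, 22.6% ± 1.14 and 19.3% ± 0.870 of the others in the same order. Without *Fgf4* the sum was also lower, from 11.1 to 11.4 CPM per kb in wild-type libraries and from 5.93 to 8.58 in the 6 others. Most of that wild-type remainder was *Fgf21*, at 6.4 and 7.0 CPM per kb, against 1.7 and 1.4 in the heterozygous deletion. A sum without both ligands was not taken, so a fall of the remaining ligands is not shown.

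The other large part of the pool was *Fgf21*, a hormone-like FGF of fasting and cell stress, at 6.71 ± 0.418 CPM per kb in wild-type. It was above *Fgf4* in both wild-type libraries, narrowly in replicate 1 (6.414 against 6.337) and by more in replicate 2 (7.005 against 5.323). *Fgf21* fell in all 3 lines, by 0.69 (adjusted p = 0.0183), 2.09 (adjusted p = 2.45e-05) and 0.89 (adjusted p = 0.00292) on the log2 scale in the homozygous deletion, the heterozygous deletion and the Alu pair. The first of these calls was lost without *Tbxt*Δexon6/Δexon6 replicate 2, where the difference was −0.39, and without either wild-type library (−0.75 and −0.62). In the heterozygous deletion *Fgf8* was the largest single ligand per kilobase, at 1.96 ± 0.188, next to *Fgf4* at 1.82 ± 0.0115, a gap within the spread of *Fgf8*.

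**Figure D3:**
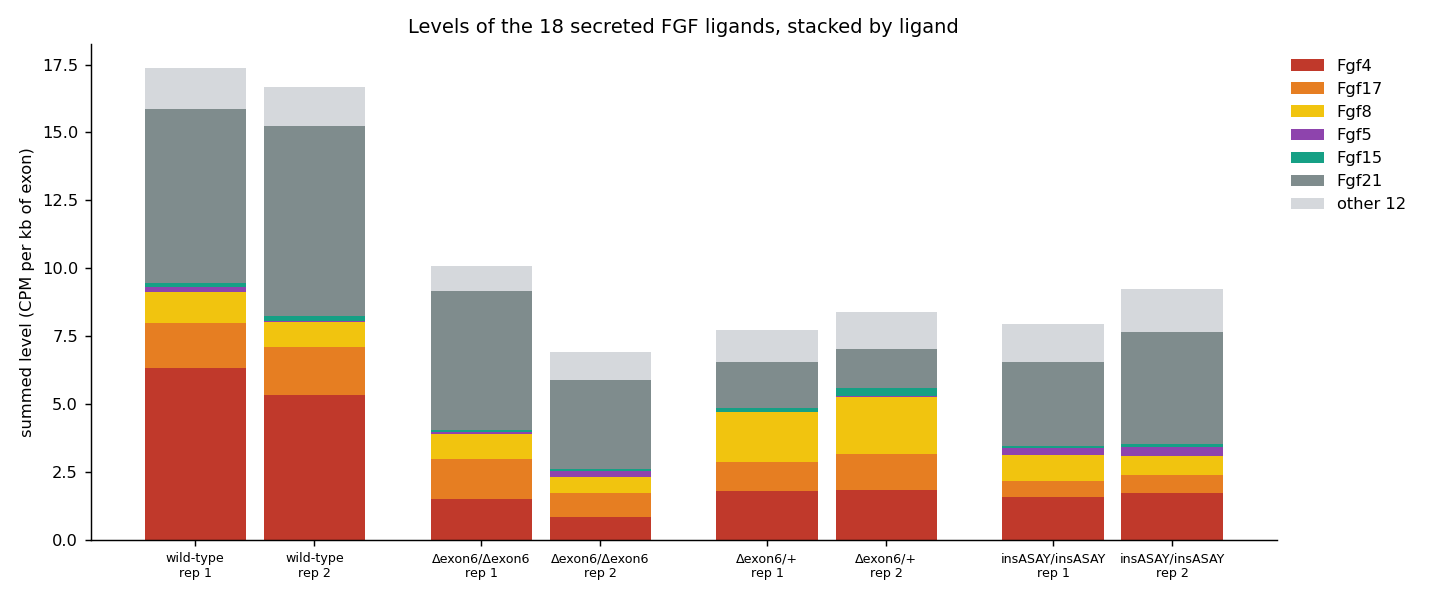
Level of the 18 secreted FGF ligands in CPM per kb of exon (vertical axis, from 0) in each library, stacked by ligand. The wild-type bars reach 17.4 and 16.7 and the other 6 lie between 6.93 and 10.1, with the *Fgf4* and *Fgf21* parts the largest in wild-type.

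Of the 13 other secreted FGFs only 4 passed the filter. *Fgf1*, an FGF that acts on all FGF receptors, fell in the homozygous deletion (log2 −1.11, adjusted p = 0.0236), as did *Fgf22* (−1.39, adjusted p = 0.0472), and both calls were lost without wild-type replicate 1 (−1.07 and −1.04), wild-type replicate 2 (−1.15 and −1.67) or *Tbxt*Δexon6/Δexon6 replicate 2 (−1.11 and −1.13). *Fgf18* was not called in any line. Of the 4 intracellular FGFs, which are not secreted and bind sodium channels, 3 were tested and *Fgf14* fell in the Alu-pair line (−1.18, adjusted p = 0.0170). That call was lost without either Alu-pair library (−1.35 and −1.04) and without wild-type replicate 2 (−0.98).

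The receptors through which these ligands act differed between lines by receptor. Per kilobase *Fgfr1* (10.3 ± 0.305) and *Fgfrl1*, a receptor without a kinase domain (10.8 ± 0.347), were the highest in wild-type, *Fgfr3* (1.63 ± 0.227) and *Fgfr4* (1.62 ± 0.130) were similar to each other, and *Fgfr2* (0.633 ± 0.0390) was lower. *Fgfr4* fell in all 3 lines, by 1.11 (adjusted p = 0.00209), 0.95 (adjusted p = 0.00454) and 1.51 (adjusted p = 0.000162) in the homozygous deletion, the heterozygous deletion and the Alu pair. It was thus lower in the same lines as *Fgf4*.

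*Fgfr2* rose in the heterozygous deletion (log2 1.44, adjusted p = 6.3e-07), the line with the highest *Fgf8* and *Fgfbp3* levels, from 189 and 168 reads in wild-type to 468 and 433. *Fgfr1* fell in the Alu-pair line (−0.59, adjusted p = 4.59e-05) and was 0.37 higher in the heterozygous deletion, under the size threshold. *Fgfr3* fell in the homozygous deletion (−0.53, adjusted p = 0.0231) and the Alu-pair line (−0.80, adjusted p = 0.00166). The homozygous call of *Fgfr3* was lost without wild-type replicate 2 (−0.39) and without *Tbxt*Δexon6/Δexon6 replicate 2 (−0.26). *Fgfrl1* and *Kl*, a co-receptor for the endocrine FGFs, were not called, and *Klb* was too low to test.

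All 23 genes listed for heparan sulfate, the co-receptor that the FGF-binding proteins compete with, were tested. The homozygous deletion had 1 higher and 3 lower, the heterozygous deletion 2 higher and 3 lower, and the Alu pair 1 higher and 4 lower, beside 12.7%, 13.5% and 21.3% of all genes called in either direction. The list's medians were 0.07, −0.05 and 0.00, so as a whole it lay near all genes. The core proteins *Hspg2* (perlecan) and *Sdc4* (a syndecan) fell in each line, *Hspg2* by 0.59, 0.67 and 1.09 and *Sdc4* by 0.71, 0.70 and 0.58 in the homozygous deletion, the heterozygous deletion and the Alu pair, with adjusted p-values of 3.2e-05 or below. The glypicans *Gpc3* (0.95, adjusted p = 5.24e-06) and *Gpc6* (0.97, adjusted p = 2.14e-05) rose in the heterozygous deletion, and *Gpc3* fell in the Alu-pair line (−0.57, adjusted p = 0.000328).

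All 20 Ras and ERK transducers listed, the kinases and adaptors between receptor and nucleus, were tested. The homozygous deletion had 1 called, the heterozygous deletion 1 and the Alu pair 2, beside 12.7%, 13.5% and 21.3% of all genes. *Rps6ka3*, a kinase downstream of ERK, rose in the homozygous deletion (0.52, adjusted p = 8e-05) and lost the call without *Tbxt*Δexon6/Δexon6 replicate 2 (0.42) and without wild-type replicate 2 (0.49). *Frs3*, a receptor adaptor, fell in the heterozygous deletion (−0.59, adjusted p = 0.0069) and the Alu-pair line (−0.60, adjusted p = 0.00382). The first call of *Frs3* was lost without wild-type replicate 1 (−0.50) or *Tbxt*Δexon6/+ replicate 1 (−0.54) and the second without Alu-pair replicate 1 (−0.50). *Braf*, a Raf kinase, fell in the Alu-pair line (−0.70, adjusted p = 2.2e-05).

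The 16 response and feedback genes, which ERK induces and which in part restrain it, were all tested. The homozygous deletion had 6 called higher and 0 lower, where 6.12% and 6.59% of all genes were. The heterozygous deletion had 2 higher and 3 lower, beside 6.60% and 6.89%, and the Alu pair 4 higher and 1 lower, beside 11.5% and 9.85%. The median log2 differences of the list were 0.39, −0.09 and 0.24 in that order. *Spred1*, an inhibitor of the Ras pathway, rose in the homozygous deletion (0.62, adjusted p = 1.8e-05) and the Alu pair (0.50, adjusted p = 1.49e-05). The latter was at the size threshold, and below it without wild-type replicate 2 (0.48), Alu-pair replicate 1 (0.49) or *Tbxt*Δexon6/Δexon6 replicate 1. *Dusp4*, an ERK phosphatase, rose in the heterozygous deletion (1.46, adjusted p = 8.26e-07), as did *Flrt3*, a membrane partner of FGF receptors (1.22, adjusted p = 3.67e-05), while *Phlda1* fell there (−1.18, adjusted p = 4.53e-06).

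Over the 6 lists together, 72 of 83 genes were tested. Of these 16 were called in the homozygous deletion (8 higher and 8 lower, 22.2%), 14 in the heterozygous deletion (5 higher and 9 lower, 19.4%) and 17 in the Alu-pair line (5 higher and 12 lower, 23.6%), beside the shares of all genes given above. Without wild-type replicate 1 or *Tbxt*Δexon6/Δexon6 replicate 2 the first count was 10.

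**Figure D4:**
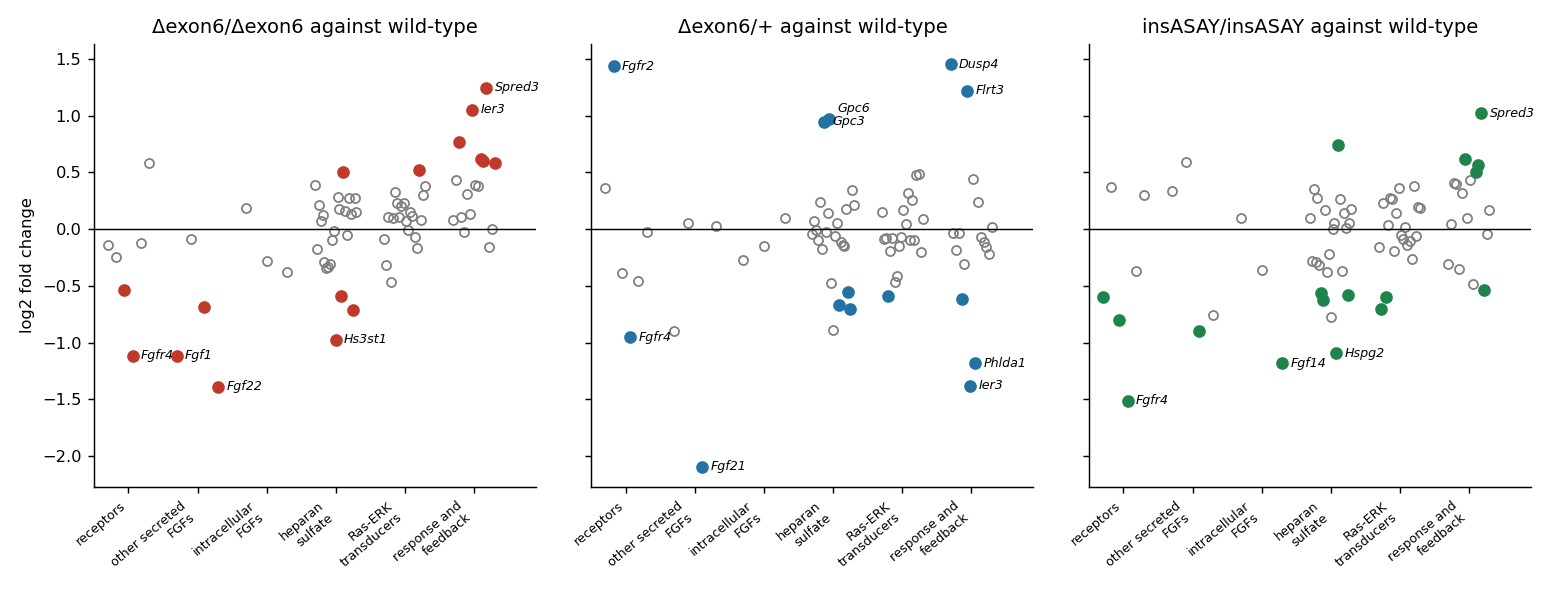
Fitted log2 fold change against wild-type (vertical axis) of the 72 tested genes of 6 FGF pathway lists, by list, in the 3 edited lines. Filled points are called genes, open points are not, and called genes past 0.9 in size are named. *Fgfr4* is low in each panel, while the called feedback genes lie above 0 in the homozygous deletion and on both sides of 0 in the heterozygous deletion.

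Around the 7 genes, those that start within 250 kb were counted to see whether a difference was shared along the chromosome. Distances are from start to start, negative upstream. Of all genes tested, 6.12%, 6.60% and 11.5% were called higher in the homozygous deletion, the heterozygous deletion and the Alu pair. The shares called lower were 6.59%, 6.89% and 9.85%. Counts over so few neighbours cannot decide whether a difference was shared. Near *Fgfbp3*, 3 of 5 neighbours were tested. *Btaf1*, a regulator of TATA-binding protein that starts at −6.5 kb and runs in the opposite direction, rose in the heterozygous deletion by 0.81 (SE 0.0710, adjusted p = 2.94e-06), and *Ppp1r3c*, a glycogen-targeting phosphatase subunit at 183 kb, rose by 1.31 (SE 0.204, adjusted p = 0.000331). *Tnks2*, at 85.4 kb, was at 0.22, so the 3 tested neighbours were all above 0 there but below the 2.82 of *Fgfbp3*. In the homozygous deletion *Ppp1r3c* fell by 0.86 (adjusted p = 0.0219), a call lost without either wild-type library (−0.98 and −0.74) or *Tbxt*Δexon6/Δexon6 replicate 2 (−0.57), while *Fgfbp3* was higher. The median of all 543 tested genes of chromosome 19, which holds *Fgfbp3* and *Fgf8*, was −0.02 in the homozygous and −0.04 in the heterozygous deletion. Chromosome 3, which holds none of the 7 genes, had a median of 0.32 in the heterozygous deletion.

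Near *Fgf4* none of 5 tested neighbours was called lower, beside 6.59% to 9.85% of all genes, so the count says little. *Ano1*, a chloride channel gene at −95.4 kb, rose in the heterozygous deletion (1.09, adjusted p = 0.00794) and the Alu-pair line (0.95, adjusted p = 0.0123), and *Ccnd1*, the gene of cyclin D1 at 92.6 kb, rose in the Alu-pair line (0.78, adjusted p = 0.000112). Both calls of *Ano1* were lost without wild-type replicate 2 (0.86 and 0.71), and each without 1 library of its own line. *Fgf3*, at −9.3 kb, was not tested because of low counts. The annotated start of *Fgf4* used for these distances lies upstream of the RefSeq start whose window is shown above.

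Near *Fgf17*, 13 of 19 neighbours were tested. In the Alu-pair line, where *Fgf17* was lowest, *Nudt18* (−0.78), *Hr* (−0.60) and *Piwil2* (−0.87) fell and none rose. In the heterozygous deletion *Dok2* (−1.90), *Dmtn* (−0.59), *Nudt18* (−1.03) and *Hr* (−1.71) fell, and *Gfra2* (1.24) and *Phyhip* (0.60) rose. In the homozygous deletion *Dok2* (−0.73) and *Piwil2* (−0.71) fell. The *Gfra2* call was lost without any of the 4 libraries compared (0.88 to 1.62), and the homozygous call of *Piwil2* without replicate 2 of that line (−0.40). *Kcnip2* near *Fgf8* rose in the heterozygous deletion (1.16), and *Prom1* near *Fgfbp1* rose in the homozygous (0.72, and 0.49 without replicate 2 of that line) and heterozygous (0.86) deletions. None of 4 tested neighbours of *Fgf5* was called, beside 12.7% to 21.3% of all genes.

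**Figure D5:**
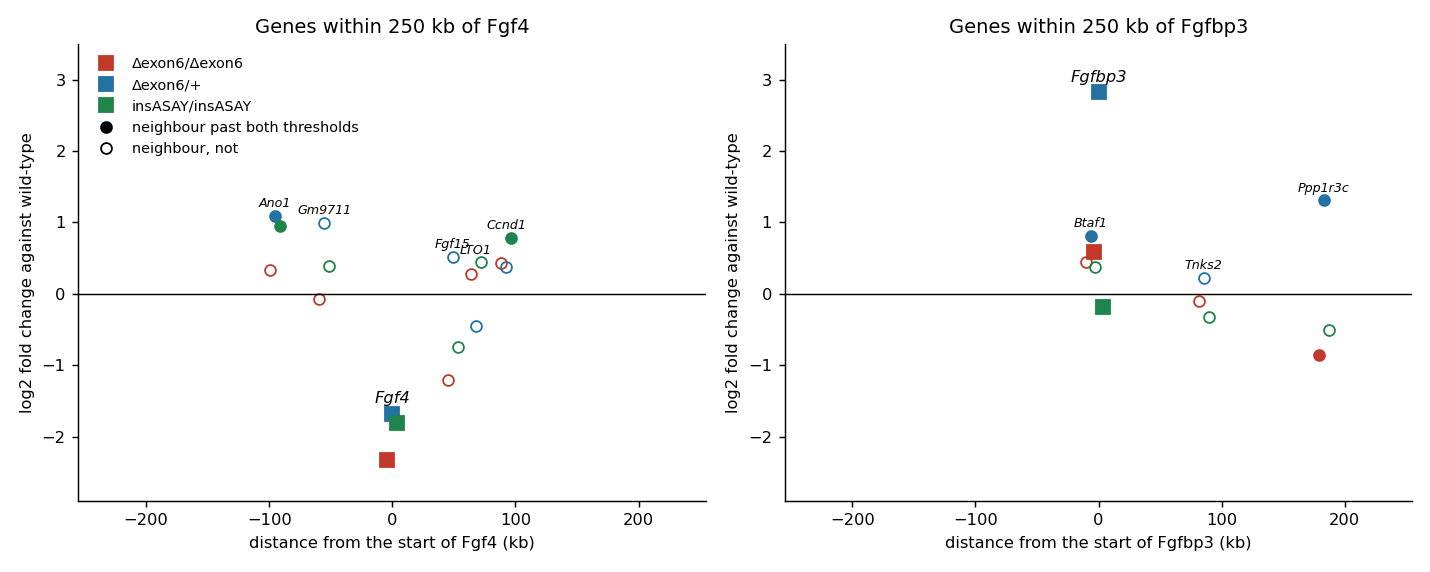
Fitted log2 fold change against wild-type (vertical axis) of the tested genes within 250 kb of *Fgf4* and *Fgfbp3* by distance from their starts in kb (horizontal axis, negative upstream), in 3 edited lines, with small sideways shifts between lines. Squares are *Fgf4* and *Fgfbp3*, filled circles are called neighbours. *Fgf4* lies below its neighbours, and *Fgfbp3* at 2.82 above *Btaf1* at 0.81.

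The genes most like each of the 5 well-measured members were found by Pearson's r of log2 CPM over the 8 libraries, among 12834 genes. These values describe 8 libraries in 4 genotypes that share media and processing. *Fgf4* was closest to *Gm53* (0.995) and *Apoe*, an apolipoprotein gene (0.988), and *Fgfbp3* to *Ddx1*, an RNA helicase gene (0.995), and *Greb1l* (0.994). *Fgf8* was closest to *Gm9294* (0.992) and *Cd1d1* (0.990), *Fgf17* to *Lactb2* (0.994) and *Wdr70* (0.991), and *Fgfbp1* to *2700099C18Rik* (0.972) and *Dppa4*, a pluripotency-associated gene (0.970). Pearson's r does not measure the size of a difference. In the heterozygous deletion *Ddx1* and *Greb1l* were 0.22 and 0.89 from wild-type on the log2 scale, against 2.82 for *Fgfbp3*. *Gm9294* and *Cd1d1* were there at 0.275 and 0.956, against 0.90 for *Fgf8*. The members themselves were left out of the genes searched, so none could appear among another's closest genes. Among the well-measured members, the strongest relation was between the carriers *Fgfbp1* and *Fgfbp3* (−0.863), followed by *Fgf8* and *Fgfbp3* (0.835), and both followed the heterozygous deletion libraries.

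Markers of other cell types were also uneven between lines. The summed level of 10 fibroblast markers was 72.5 to 75.4 CPM in the *Tbxt*Δexon6/+ libraries, where *Fgfbp3* and *Fgf8* were highest, 46.3 to 52.3 CPM in wild-type and 24.9 to 31.7 CPM in the 4 others, and 4 of the 10 had under 10 reads in every library. Much of the sum was *Fbln2*, an extracellular matrix gene, at 49.1 ± 2.43 CPM in the heterozygous deletion and 24.9 ± 1.65 CPM in wild-type, whereas the collagen gene *Col3a1* was called lower there (−1.55, adjusted p = 0.0441) and *Col1a1* and *Dcn* were at −0.36 and −0.27, not called. The *Col3a1* call, on at most 18 reads a library, was lost without either wild-type library (−1.61 and −1.49) or either of the 2 *Tbxt*Δexon6/+ libraries (−1.15 and −2.05), and with the replicate block (−1.55). Of the 6 fibroblast markers tested, 3 were called higher and 1 lower in that line, beside 6.60% and 6.89% of all genes. Of 8 neural markers, *Sox1* (2.04, adjusted p = 4.12e-07) and *Pax6* (1.31, adjusted p = 0.00037) rose in the same heterozygous line. Of the 6 neural markers tested, 3 were called higher there and 0 lower, beside 6.60% and 6.89% of all genes. The summed neural level there, 102.3 to 104.4 CPM, was next to that of wild-type, 103.2 to 105.1 CPM. That sum was largely *Nes*, at 68.2 ± 0.0374 CPM there and 91.9 ± 3.13 CPM in wild-type (log2 −0.43, short of the size threshold).

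The 12 streak markers summed to 25.9 to 27.1 CPM in the heterozygous deletion and 38.3 to 48.7 CPM in the 6 other libraries, a sum made up largely of *Nodal* and *Eomes*, at 19.3 ± 1.74 and 14.0 ± 1.11 CPM in wild-type. Both were called lower in the heterozygous deletion (−0.80, adjusted p = 6.11e-05, and −0.95, adjusted p = 0.000136). *Cdx2*, a caudal homeobox gene, was called higher (3.06, adjusted p = 0.00017), from 3 and 9 reads in wild-type to 54 and 41. *T* (0.17) and *Tbx6* (0.40) were not called. Of the 7 streak markers tested, 1 was called higher and 3 lower in that line, beside 6.60% and 6.89% of all genes. The 8 primitive endoderm markers summed to 21.6 to 21.9 CPM in the heterozygous deletion and 12.7 to 19.3 CPM in the 6 others. They did not move together, since *Gata4* was at 7.76 ± 0.109 CPM there against 9.31 ± 0.317 in wild-type, not called. *Dab2* was called higher, at 7.03 ± 0.398 against 3.53 ± 0.646 CPM. Of the 7 tested, 2 were called higher and 0 lower in that line, beside 6.60% and 6.89% of all genes. The 10 formative markers summed to 534 to 555 CPM in wild-type and homozygous deletion libraries and 605 to 645 CPM in the other 4. That sum was largely *Dnmt3b* and *Dnmt3a*, at 230 ± 7.47 and 130 ± 1.01 CPM in wild-type. Of the 10, the heterozygous deletion had 3 called higher and 0 lower, beside 6.60% and 6.89% of all genes. The Alu pair had 2 higher and 1 lower, beside 11.5% and 9.85%. The part of these cell-type markers in the differences of the 7 genes was not tested.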

How the data were processed

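Total RNA of 8 cell cultures was sequenced as stranded poly(A) libraries. The authors mapped reads to mm10 with STAR 2.7.2a and deposited its counts of reads per gene, without normalization, for both strands and for each strand; their own analysis used DESeq2 1.40.2. The annotation release is not given in the sources used here. Of these, the strand-specific count that assigns a read to the gene on the other strand from its first mate was used, since it held nearly all reads. STAR's summary lines stayed out of library sizes and tests. They were 26.2% to 29.0% of reads in 7 libraries, and 1 file held none. Of 48440 gene identifiers 48058 matched GENCODE M21, by stable identifier.

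One model of all 8 libraries was fitted with edgeR 4.0.16 (R 4.3.3) on 17049 genes that passed filterByExpr (at least 10 reads at the median library size and 15 in all), with TMM scaling, the quasi-likelihood test and Benjamini-Hochberg adjustment over all genes tested. The 6 pairs of genotypes were compared. The depth behind each value is its read count, and Poisson intervals and limits from 0 reads cover counting error only. The replicates are described as biological duplicates, and those of the homozygous deletion are 2 clones. The p-values rest on the spread between libraries of the same genotype, estimated over all 4 genotypes and in part across genes. Whether this spread covers a difference between clones is not known for the other lines.

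The members and the gene lists were chosen with earlier results of these data known. Named genes were all 7 members, *T*, the receptors tested, up to 4 called genes per list with the smallest adjusted p, the 2 genes with the highest correlation to each member with at least 10 reads in every library, and called neighbours within 250 kb. *Pou5f1*, *Sox2*, *Sox1*, *Pax6*, *Nes*, *Fgf18*, *Klb*, *Tnks2*, *Fgf3*, *Fbln2*, *Col3a1*, *Col1a1*, *Dcn*, *Nodal*, *Eomes*, *Cdx2*, *Tbx6*, *Gata4*, *Dab2*, *Dnmt3b* and *Dnmt3a* were added after their values were seen. Promoter windows came from RefSeq (GRCm38.p6). The script was tested on simulated data. Alternatives were DESeq2 1.42.0, its size factors, other filters, unstranded counts, fits of 2 genotypes, a replicate block and leaving out each library. Replicate numbers did not pair the libraries (correlations of replicate deviations from −0.100 to 0.0672).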

Additional observations from a re-analysis of the deposited data

Results flagged for a closer look

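*Gpc3*, a glypican, differed from wild-type in opposite directions in 2 lines, at −0.57 in the Alu-pair line and 0.95 in the heterozygous deletion on the log2 scale, a difference of −1.51 (edgeR, adjusted p = 9.48e-08). *Ier3*, an ERK response gene chosen here after its values were seen, was at −1.38 in the heterozygous and 1.05 in the homozygous deletion, a difference of −2.43 (adjusted p = 1.76e-06).

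Reads of *Fgfbp3* on the strand not used for counting averaged 20 in the homozygous deletion (13 and 27) and 25 in the heterozygous deletion (30 and 20), above the 9 and 10 of the wild-type libraries. As a share of the reads on both strands they were 1.40% and 2.72%, and 0.662% and 0.472%, beside 1.24% and 1.62% in wild-type. The cause was not tested.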

How the results depend on the processing

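With 2 libraries a genotype, the members' calls in the comparisons between edited lines moved most. For the heterozygous against the homozygous deletion, 5 members were called, 3 with at least 10 reads asked in every library and 3 with DESeq2, which gave *Fgf5* and *Fgf15* no adjusted p, and 3 to 5 with 1 library left out. For the Alu pair against the homozygous deletion, 1 was called, 2 with DESeq2 size factors, 3 without a filter, 2 with at least 10 reads in every library and 2 with unstranded counts, and 1 to 2 with 1 library left out. For the Alu pair against the heterozygous deletion, 5 were called, 3 with at least 10 reads in every library, and 3 to 6 with 1 library left out. Asking for 10 reads in every library removes *Fgf5* and *Fgf15* from the test. Against wild-type the homozygous deletion had 2 members called, 1 to 3 with 1 library left out, and 16 pathway genes, 10 to 20 with 1 library left out. The causes of the other moves were not tested. No value changed from a call in one direction to a call in the other.

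The replicate block left the members' calls at 2, 3 and 2 against wild-type. Of 342 differences of named genes, 339 kept their side of the thresholds with the block, while *Fgf22* in the homozygous and *Gfra2* and *Col3a1* in the heterozygous deletion lost their calls. With DESeq2, which gave 316 of them an adjusted p, 300 did and 16 lost a call, and without *Tbxt*Δexon6/Δexon6 replicate 2, the library on which most depended, 308 did, 21 lost a call and 13 gained one. *Fgf4* against wild-type kept its call under all 15 alternatives in each line, as did *Fgfbp3* in the heterozygous deletion and *Fgf17* in the Alu-pair line. Depth limits *Fgf5* and *Fgf15* most.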
